A study of Mus musculus with 2 samples.

Results

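Cholesterol uptake, ester storage and transport in the mouse adrenal gland were followed through 42 genes, taken from 43346 Ensembl genes in the deposited tables. They were chosen by function, as named genes of lipoprotein uptake, sterol esterification and hydrolysis, lipid droplets and intracellular sterol carriers, and all 42 were found by symbol. The samples were 2 libraries of polyadenylated RNA, replicate 2 and replicate 1, which the labels give as technical replicates of 1 biological sample. The tissue was adrenal gland of a female adult C57BL/6J mouse aged 10 weeks, with no treatment or altered allele named for either library, and RNA was purified with a kit for fatty tissue. The labels date the performance of replicate 2 to May 2015 and place it outside an earlier publication, so library and date cannot be told apart. Because both libraries come from 1 biological sample, every spread given here is technical and none covers differences between animals. In whole tissue, fewer cells of a type and less RNA per cell cannot be told apart.

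Cells of the adrenal cortex make steroids from cholesterol and take much of it from circulating lipoproteins, in the mouse largely by selective uptake of cholesteryl esters from high-density lipoprotein. They keep a store of cholesteryl esters in lipid droplets, which acyltransferases fill and ester hydrolases empty. Free cholesterol then moves between membranes on carrier proteins, and the Star protein governs its passage to the inner mitochondrial membrane, where side-chain cleavage begins steroid synthesis.

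The libraries held 17376660 expected counts in replicate 2 and 28267651 in replicate 1, each rounded per gene. Mitochondrial genes and their nuclear copies took 15.3% of the counts in replicate 2 and 53.1% in replicate 1, which left 14716667 nuclear counts in replicate 2 and 13260900 in replicate 1. TPM, a level per transcript length on a scale of fixed sum, is therefore given here after rescaling over nuclear genes, and called nuclear TPM. The 42 genes took 2.42% of nuclear counts in replicate 2 (exact 95% Clopper-Pearson interval 2.412 to 2.428) and 2.31% in replicate 1 (2.298 to 2.314). These intervals, like all others here, cover counting error only. Cortex markers were abundant, with 7 of 7 genes detected and sums of 42742 nuclear TPM in replicate 2 and 32690 in replicate 1, led by Hsd3b1, Cyp11b1 and Akr1b7. Single cortex markers differed in both directions. Mc2r had 569 nuclear TPM in replicate 2 and 1402 in replicate 1, and Cyp11b1 had 8441 in replicate 2 and 10688 in replicate 1. The rest had more in replicate 2, most unequally Cyp11b2, with 416 in replicate 2 and 16.5 in replicate 1. Medulla markers, led by Chgb, Chga and Th, summed to 7330 in replicate 2 and 2009 in replicate 1 on the same scale. Of these 6 genes Pnmt had 4291 counts in replicate 2 and 0 in replicate 1. Only Slc18a1 ran the other way, with 41.1 nuclear TPM in replicate 2 and 69.3 in replicate 1. Erythroid markers, led by Hba-a2, Hbb-bs and Hba-a1, summed to 4823 and skeletal muscle markers, led by Tnnt3, Acta1 and Ckm, to 523 nuclear TPM in replicate 2, against 282 for erythroid and 63.3 for muscle markers in replicate 1. Endothelial markers, led by Emcn, Kdr and Plvap, summed to 644 nuclear TPM in replicate 2 and 554 in replicate 1. These similar sums hide opposite differences. Emcn had 151 in replicate 2 and 371 in replicate 1, and Plvap had 144 in replicate 2 and 5.49 in replicate 1. None of these marker sums was adjusted for base composition. Of 4 kidney markers only Kap had counts, 2 in each library, and the other 3 were at 0 in both.

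The ratio between the libraries followed base composition, and 4 coding stretches give examples from GC-rich and GC-poor genes. They do not reach the GC-richest member, Plin1 at 61.3%. Genes of like GC content could also differ, with log2 ratios of 2.18 for Plin5 at 58.7% and 7.26 for Tspo at 58.8%. Each is a window of 120 bases of GENCODE M21 coding sequence (GRCm38), picked because its GC content is closest to that of the whole transcript. Letters run 5′ to 3′ on the coding strand, with G and C in capitals. Tspo, at chr15:83563592-83574203 on the plus strand, had the largest ratio toward replicate 2, and Lipe, at chr7:25379527-25398710 on the minus strand, the third largest. Cd36, at chr5:17781690-17888801, and Soat1, at chr1:156424525-156474331, both on the minus strand, had more scaled counts in replicate 1. Coding bases 55 to 174 of Tspo, 22 to 141 of Lipe, 193 to 312 of Cd36 and 16 to 135 of Soat1 are printed.
Tspo: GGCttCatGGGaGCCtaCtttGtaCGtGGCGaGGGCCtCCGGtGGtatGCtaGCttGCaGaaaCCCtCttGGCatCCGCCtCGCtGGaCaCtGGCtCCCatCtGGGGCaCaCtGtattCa
Lipe: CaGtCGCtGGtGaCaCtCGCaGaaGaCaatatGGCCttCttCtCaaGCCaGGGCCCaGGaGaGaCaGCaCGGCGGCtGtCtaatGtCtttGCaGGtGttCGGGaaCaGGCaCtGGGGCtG
Cd36: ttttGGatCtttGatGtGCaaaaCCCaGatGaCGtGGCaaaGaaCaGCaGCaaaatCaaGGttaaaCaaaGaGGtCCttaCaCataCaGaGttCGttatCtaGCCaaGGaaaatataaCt
Soat1: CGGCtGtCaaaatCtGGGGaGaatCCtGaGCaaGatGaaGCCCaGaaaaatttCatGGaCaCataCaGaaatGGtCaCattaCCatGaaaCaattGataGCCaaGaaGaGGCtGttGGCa
The windows hold 59.2% GC in Tspo and 58.3% in Lipe, and 38.3% in Cd36 and 43.3% in Soat1.

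Star was the leading transcript of the 42, and the rank of most others depended on the library. After Star, the highest means over both libraries belonged to Scarb1, Cd36, Lpl, Apoe, Gramd1b, Soat1, Lipa, Nceh1, Tspo, Plin2 and Pnpla2, in that order. Star averaged 9953 ± 1709 nuclear TPM (SD, n = 2 libraries), against 1090 ± 1280 for Scarb1, and its values did not overlap those of Scarb1. In every other neighbouring pair among the 12 highest the values of the 2 libraries overlapped, so the means do not resolve their order. Compared within each library, Cd36 was above Lpl, Soat1 above Lipa and Lipa above Nceh1 in both. The remaining neighbouring pairs below Star changed order between the libraries. A level of 100 nuclear TPM was reached by 20 of the genes in replicate 2 and 10 in replicate 1, of which 9 reached it in both. By deposited TPM, 32 of the 42 reached a value of 1 in both libraries, and by nuclear TPM 39 did. The deposited TPM lay outside the authors' own posterior interval for 23 of the genes in replicate 2 and 10 in replicate 1, so those bounds are not used as errors. The order of the 42 levels gave a Spearman rho of 0.538 between the libraries, a description over 42 genes that share the same 2 libraries.

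**Figure D1:**
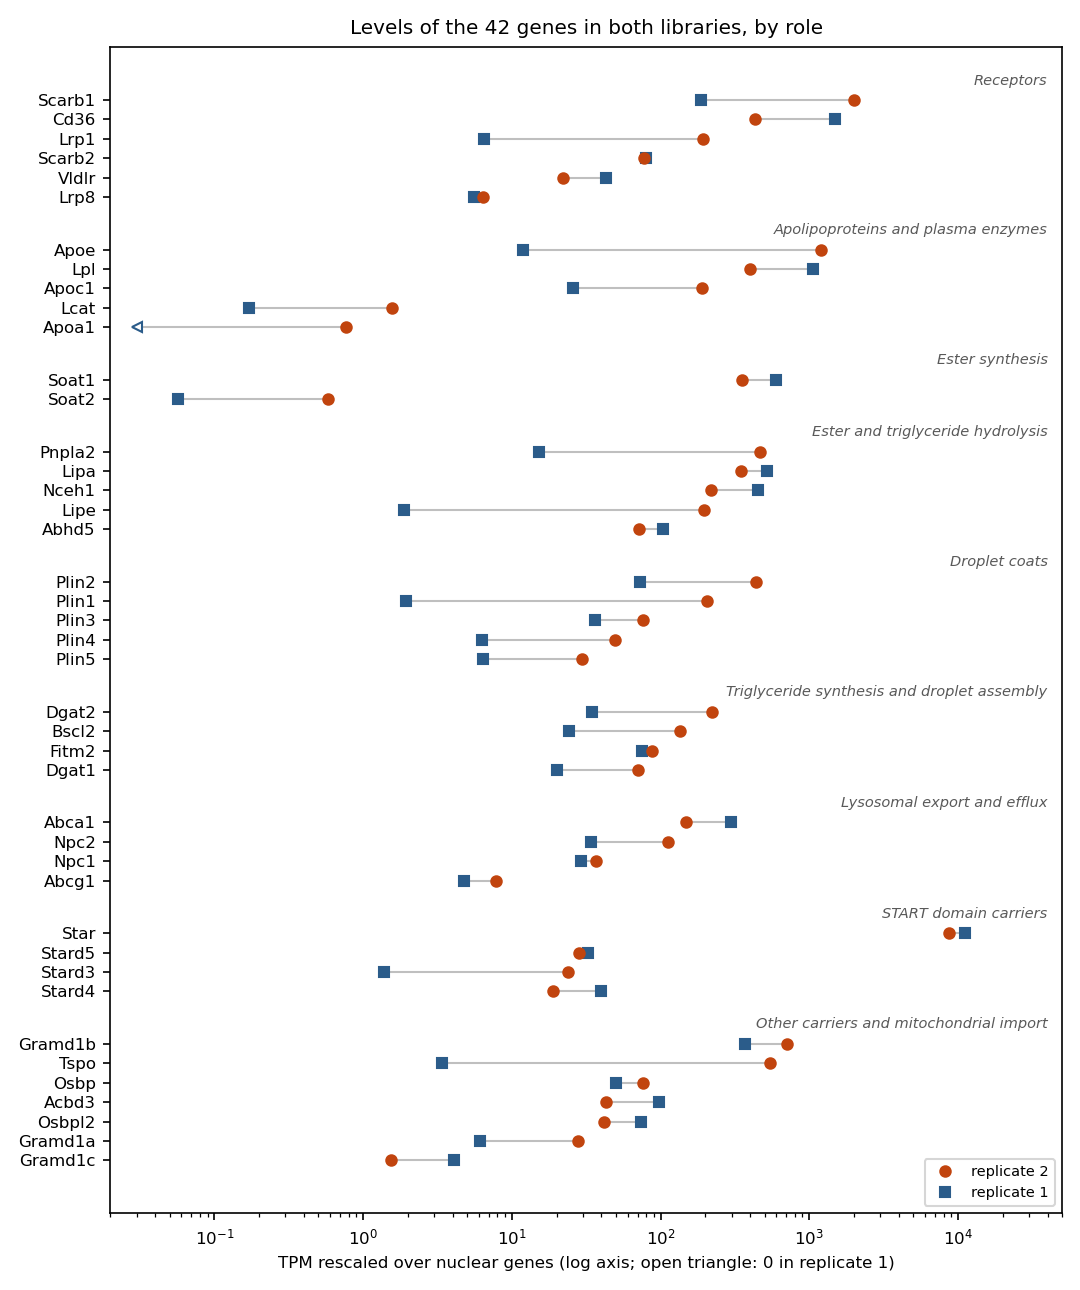
Level of each of the 42 genes, in TPM rescaled over nuclear genes on a log axis, grouped by role, with a circle for replicate 2 and a square for replicate 1 joined by a line. Star stands apart at 8744 in replicate 2 and 11161 in replicate 1, while Tspo lies far apart between the libraries, with 544 in replicate 2 and 3.37 in replicate 1.

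For the comparison of the libraries, counts were scaled by TMM, and a gene was called higher or lower when its ratio of replicate 2 to replicate 1 was at least 2-fold and the exact 95% interval lay on one side of 1. With 1 library on each side there is no replicate check and no p-value, and a call describes these libraries only. Of the 39 members tested, which had 20 or more counts over both libraries together, 18 were higher in replicate 2, 8 were lower and 13 were not called. The split depended on the scaling, with 24 higher and 0 lower by library totals, which moved the median of all genes by 1.13 on the log2 scale, and 18 higher and 3 lower by totals over nuclear genes. All genes shifted too, with 54.1% higher and 4.01% lower by library totals, and 40.4% higher and 20.8% lower by nuclear totals. By TMM, over all 14358 genes tested, 36.5% were higher, 27.7% lower and 64.2% called in either direction, so a call was common. The median log2 ratio was 0.58 for the 39 genes and 0.10 for all genes. GC content ran with these ratios, with a Pearson r of 0.891 and a Spearman rho of 0.946 over the 39 genes and an r of 0.839 and a rho of 0.901 over all genes, given as descriptions because all points share the same 2 libraries.

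The split by GC content was nearly complete. All 15 members tested with at least 54% GC were higher in replicate 2, as were 90.5% of all 4132 such genes. None of the 13 members under 48% GC was higher and 8 were lower, beside 0.867% higher and 65.3% lower among all 5654 such genes. Between these bounds 3 of 11 members, Plin2, Plin3 and Npc2, were higher and none was lower, beside 31.8% higher and 5.34% lower among 4531 genes. After the trend with GC content was removed, 9 members stayed higher, 6 were no longer called and 3 were called lower, and all 8 lower calls ended. Lrp8 was newly lower. Over the 14317 genes with a GC value, 11.8% were then higher, 11.5% lower and 23.3% called in either direction. The SD of the log2 ratios was 1.10 over the members and 1.24 over all genes with the trend removed, against 2.66 over the members and 2.40 over all genes as scaled.

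**Figure D2:**
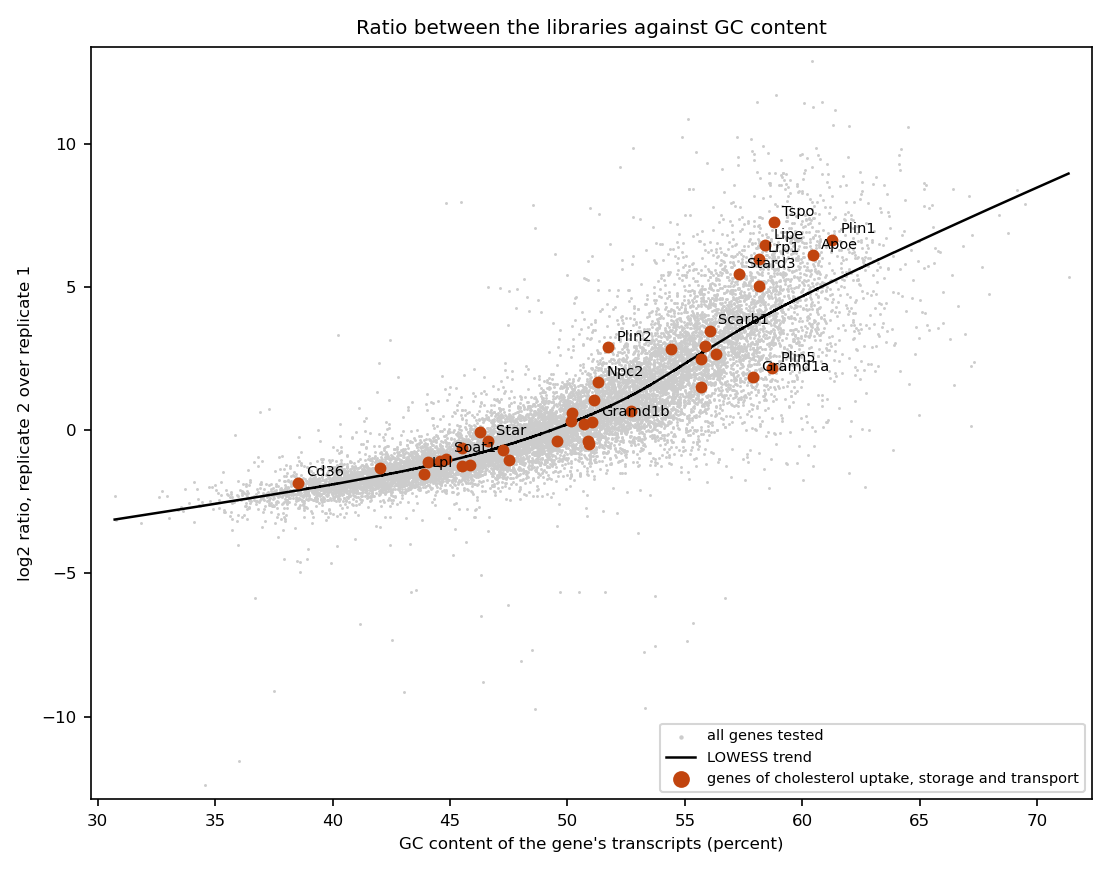
Log2 ratio of scaled counts, replicate 2 over replicate 1, against the GC content of each gene's transcripts in percent, with all genes tested as small grey points, the members as large points and the fitted trend as a line. Tspo, Lipe and Lrp1 lie above the line, Plin5 and Gramd1a below it, and Cd36, Soat1 and Lpl close to it.

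Among the receptors, the high-density lipoprotein receptor Scarb1 and the scavenger receptor Cd36, which also takes up fatty acids, exchanged places. Scarb1, at chr5:125277087-125341094 on the minus strand, had 1995 nuclear TPM in replicate 2 and 186 in replicate 1. Cd36 had 430 in replicate 2 and 1484 in replicate 1. Scarb1 was thus 4.64 times Cd36 in replicate 2 and 0.125 times in replicate 1. On scaled counts Scarb1 was 11.1-fold higher in replicate 2 (interval 10.7 to 11.6) and Cd36 lower, at 0.282 times (0.276 to 0.288). Both calls ended without the GC trend, at log2 ratios of 0.60 for Scarb1 and 0.27 for Cd36. The ratio of Scarb1 was 1.86 and still called when GC was averaged over annotated transcripts by length instead of by abundance.

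The large endocytic receptor Lrp1, which clears lipoprotein remnants, was 63.4-fold higher in replicate 2 (52.5 to 78.1), with 192 nuclear TPM there and 6.46 in replicate 1. Its call remained without the GC trend, at a log2 ratio of 2.10. Vldlr, a receptor for triglyceride-rich particles, was lower at 0.417 times, with 1061 counts in replicate 2 and 1885 in replicate 1, and that call ended at -0.30. Scarb2, a lysosomal membrane protein of the same family as Scarb1, differed little, with 77.4 nuclear TPM in replicate 2 and 79.5 in replicate 1. Lrp8, which binds apolipoprotein E and reelin, was lowest of the receptors, with 6.38 nuclear TPM in replicate 2 and 5.60 in replicate 1, while its log2 ratio of scaled counts ran the other way, at -0.50. Without the GC trend Lrp8 was called lower at -1.02, and with the length trend also removed it was not called, at -0.80.

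Of the apolipoproteins and plasma enzymes, Apoe, the ligand of the low-density lipoprotein receptor family, varied most. It had 1201 nuclear TPM in replicate 2 and 11.9 in replicate 1, a 68.6-fold higher ratio in replicate 2 (55.3 to 87.0) that left a log2 ratio of 1.24 without the GC trend. Apoc1, a small apolipoprotein encoded beside Apoe, had 189 nuclear TPM in replicate 2 and 25.8 in replicate 1, and its call as 7.11-fold higher ended at 0.81. Lpl, which releases fatty acids from circulating particles, was lower, with 399 nuclear TPM in replicate 2 and 1057 in replicate 1, and that call ended at -0.24.

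Apoa1, the main protein of high-density lipoprotein, and Lcat, which esterifies cholesterol on it, are made chiefly in liver and were close to the counting limit. Apoa1 had 5 counts in replicate 2 and 0 in replicate 1, where a count of 0 allows up to 0.106 CPM of all counts. Lcat had 14 counts in replicate 2 and 1 in replicate 1. Liver markers summed to 7.43 nuclear TPM in replicate 2 and 2.17 in replicate 1 over 6 genes, led by Apoa2, Alb and Ttr, with Apob and Serpina1a at 0 counts in replicate 1. Macrophage markers, led by C1qa, C1qb and C1qc, summed to 313 in replicate 2 and 73.8 in replicate 1. Of the 8 markers 5 were higher and 1 lower, and 3 were higher and 0 lower without the GC trend. Over all genes tested 36.5% were higher and 27.7% lower, and 11.8% higher and 11.5% lower without the GC trend. Macrophages also express Apoe, and the part of either cell type in these values was not tested.

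Ester synthesis rested on Soat1, the acyltransferase that esterifies cholesterol in the adrenal cortex, which exceeded Soat2, its counterpart of liver and intestine, in both libraries. Soat1 had 354 nuclear TPM in replicate 2 and 599 in replicate 1. Soat2 had 8 counts in replicate 2 and 1 in replicate 1, too few for a ratio. The log2 ratio of Soat1 was -0.99, just inside the 2-fold limit, and 0.11 without the GC trend. With DESeq2 size factors in place of TMM it was -1.05 and called lower.

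The hydrolases fell into GC-rich lipases of the droplet surface, higher in replicate 2, and GC-poorer enzymes that were not. Lipe, the hormone-sensitive lipase that is the chief neutral cholesteryl ester hydrolase of the adrenal, had 3944 counts in replicate 2 and 33 in replicate 1. Its ratio was 87.4-fold (62.9 to 129), and the log2 ratio was 2.46 without the GC trend. Pnpla2, which takes the first fatty acid from triglyceride, had 466 nuclear TPM in replicate 2 and 15.3 in replicate 1, a log2 ratio of 5.02 that stayed called at 1.14. Abhd5, its activator, had 72.0 in replicate 2 and 103 in replicate 1, not 2-fold apart on scaled counts. Lipa, the acid lipase of lysosomes, had 347 nuclear TPM in replicate 2 and 521 in replicate 1, with a log2 ratio of -0.61. Nceh1, another neutral ester hydrolase, had 219 in replicate 2 and 449 in replicate 1, and its call as lower ended at 0.07. Thus Lipa was above Lipe in both libraries, and Pnpla2 was the most abundant hydrolase of replicate 2 only.

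All 5 perilipins, the coat proteins of lipid droplets, were higher in replicate 2, but without the GC trend 2 were higher, 2 were not called and Plin5 was lower. Of all genes tested 36.5% were higher, and without the GC trend 11.8% were higher and 11.5% lower. Plin2, the coat found in most cells, led in both libraries, with 441 nuclear TPM in replicate 2 and 72.7 in replicate 1. It was 7.49-fold higher (6.85 to 8.22) and had a log2 ratio of 2.09 without the GC trend. Plin1, the coat of adipocytes and steroid-producing cells, was second in replicate 2 and last in replicate 1, with 2631 counts in replicate 2 and 19 in replicate 1. Its ratio was 100.3-fold (65.5 to 171), and its log2 ratio without the GC trend was 1.46. Plin3 had 76.4 nuclear TPM in replicate 2 and 36.4 in replicate 1, and Plin4 had 49.5 in replicate 2 and 6.35 in replicate 1, and both calls ended, at 0.46 for Plin3 and 0.16 for Plin4. Plin3, at 1.04 by TMM, also fell short of 2-fold with DESeq2 size factors, at 0.99. Plin5, known from oxidative tissue, had 29.8 in replicate 2 and 6.40 in replicate 1, a log2 ratio of 2.18 that became -1.96.

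Adipocyte markers outside the 42 genes were measured beside them. Over 8 such genes the sum was 5494 nuclear TPM in replicate 2 and 2724 in replicate 1, led by Fabp4, Cfd and Ucp1. None was at 0 in either library, 4 were higher in replicate 2 and 0 lower, and 5 were higher and 0 lower without the GC trend. The shares over all genes tested were 36.5% higher and 27.7% lower, and 11.8% higher and 11.5% lower without the GC trend. Plin1, Lipe, Cd36 and Lpl are also expressed by fat cells, and the part of fat cells in their values was not tested.

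**Figure D3:**
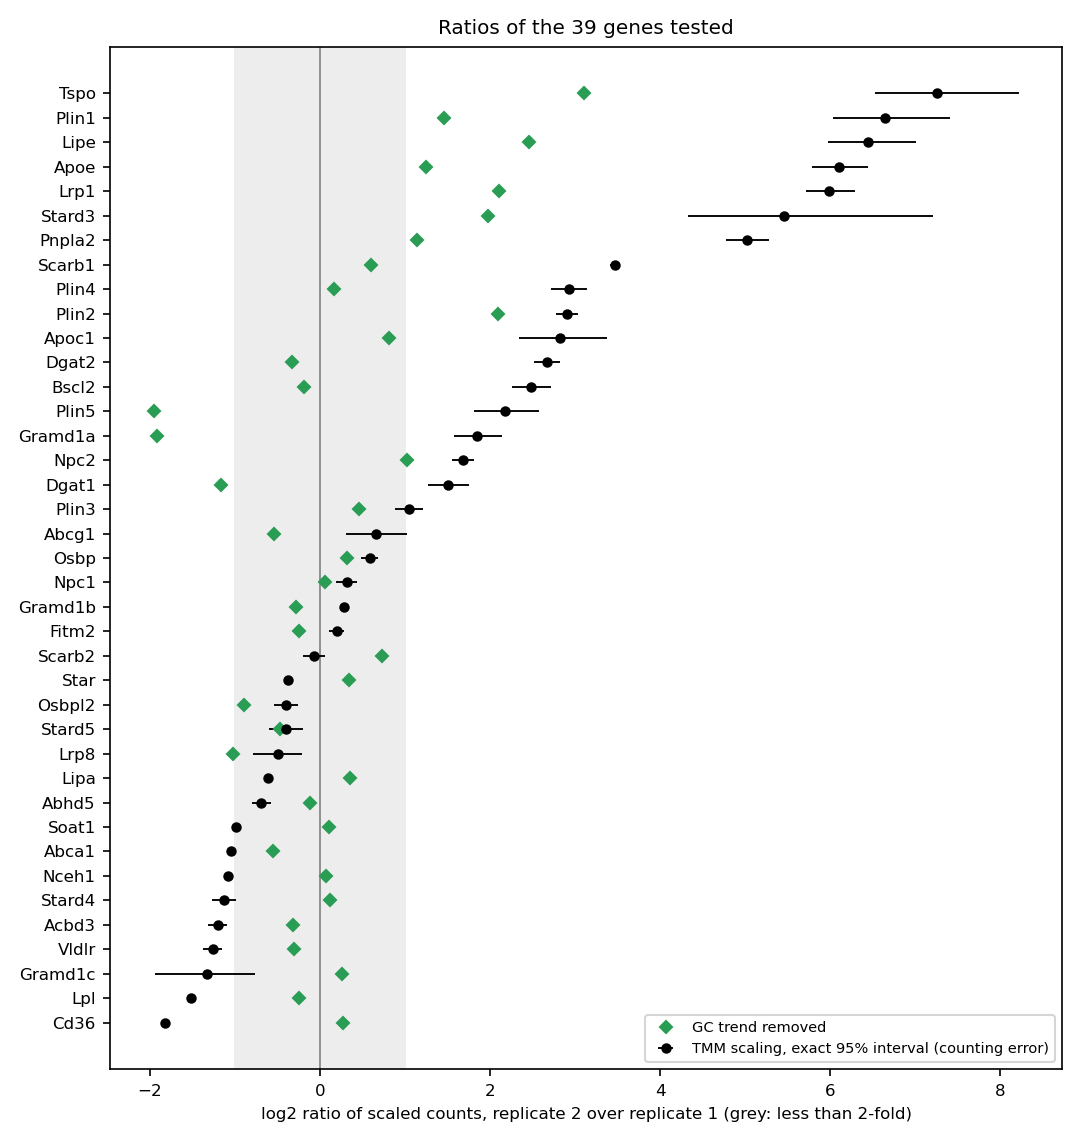
Log2 ratio of replicate 2 over replicate 1 for the 39 genes tested, in order, as black points with exact 95% intervals for counting error, and with the GC trend removed as green diamonds; the grey band marks less than 2-fold. Tspo stays highest at 3.10 with the trend removed, while Plin5, Gramd1a, Dgat1 and Lrp8 lie to the left of the band.

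Triglyceride synthesis and droplet assembly gave 3 higher calls of 4, none of which was left without the GC trend. Over all genes tested 36.5% were higher, and without the GC trend 11.8% were higher and 11.5% lower. The 3 genes called have at least 54% GC, a class in which 90.5% of all genes were higher. Dgat2, the acyltransferase at droplets, had 223 nuclear TPM in replicate 2 and 34.4 in replicate 1. Dgat1, its counterpart of the endoplasmic reticulum, had 70.6 in replicate 2 and 20.1 in replicate 1, so Dgat2 was above Dgat1 by 3.16 times in replicate 2 and 1.71 times in replicate 1. Their log2 ratios were 2.67 for Dgat2 and 1.51 for Dgat1, and -0.33 for Dgat2 and -1.16 for Dgat1 without the GC trend, where Dgat1 was called lower. Bscl2, which encodes the droplet assembly protein seipin, had 135 in replicate 2 and 24.3 in replicate 1, and its log2 ratio of 2.48 became -0.19. Fitm2, which promotes droplet budding, had 87.2 in replicate 2 and 74.5 in replicate 1 and was not called.

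For lysosomal export and efflux, the efflux pump Abca1, which loads apolipoprotein A1, was the most abundant gene in both libraries. It had 148 nuclear TPM in replicate 2 and 298 in replicate 1, and its call as lower, at a log2 ratio of -1.05, ended at -0.55. Abca1 exceeded Abcg1, which passes sterol to mature particles, 18.9 times in replicate 2 and 62.0 times in replicate 1, with Abcg1 at 7.79 nuclear TPM in replicate 2 and 4.80 in replicate 1. Npc2, the soluble carrier that hands lysosomal cholesterol to Npc1, had 112 in replicate 2 and 34.2 in replicate 1, and its 3.20-fold higher ratio (2.93 to 3.50) stayed called by a small margin without the GC trend, at 1.02. Npc1 itself had 36.8 in replicate 2 and 29.0 in replicate 1 and was not called.

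Star, at chr8:25806555-25815982 on the plus strand, accounted for 49.1% of all counts of the 42 genes in replicate 2 (48.9 to 49.2) and 55.1% in replicate 1 (54.9 to 55.3). Among all nuclear genes it ranked 3 in replicate 2 and 2 in replicate 1. Its log2 ratio was -0.38, not called, and 0.34 without the GC trend. The next of the carriers with the same lipid-binding START domain was Stard5 in replicate 2, which Star exceeded 307 times, and Stard4 in replicate 1, which it exceeded 282 times. Stard3, which sits on late endosomes, had 321 counts in replicate 2 and 5 in replicate 1, a ratio of 43.9-fold (20.2 to 147) with a log2 ratio of 1.98 without the GC trend. Stard4 and Stard5 are soluble sterol carriers of the cytosol. Stard4 had 18.8 nuclear TPM in replicate 2 and 39.6 in replicate 1, and Stard5 had 28.5 in replicate 2 and 32.4 in replicate 1. The lower call of Stard4 ended at 0.12.

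Tspo, a cholesterol-binding protein of the outer mitochondrial membrane, gave the largest ratio of the 42 genes. It had 2779 counts in replicate 2 and 13 in replicate 1, and was 153-fold higher (92.4 to 298). Without the GC trend its log2 ratio of 7.26 became 3.10, still the largest. Its transcript of 854 bases is short, and the ratios of the members fell with log2 length at a Pearson r of -0.544 over 39 genes. With both trends removed Tspo stood at 2.69. Acbd3, a Golgi protein that binds Tspo, was lower, with 43.0 nuclear TPM in replicate 2 and 97.0 in replicate 1, and that call ended at -0.31.

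Gramd1b led the proteins that move cholesterol from the plasma membrane to the endoplasmic reticulum, and in mice it is the form known for this step in the adrenal cortex. At chr9:40293233-40531383 on the minus strand, it had 713 nuclear TPM in replicate 2 and 371 in replicate 1, with a log2 ratio of 0.28. Gramd1a had 27.7 in replicate 2 and 6.12 in replicate 1, and Gramd1c had 1.54 in replicate 2 and 4.12 in replicate 1. The order of the 3 was the same in both libraries, with Gramd1b above Gramd1a by 25.8 times in replicate 2 and 60.7 times in replicate 1. Gramd1a turned from higher, at 1.85, to lower, at -1.91, without the GC trend, and the lower call of Gramd1c, at -1.33, ended at 0.26. Osbp, which exchanges sterol between endoplasmic reticulum and Golgi, exceeded its relative Osbpl2 by 1.83 times in replicate 2 and stood at 0.676 times Osbpl2 in replicate 1. Their GC contents were 50.2% for Osbp and 50.9% for Osbpl2, and the order by nuclear TPM still differed after the shift by the GC trend. By counts, which take no account of transcript length, Osbp was above Osbpl2 in both libraries. Osbp had 2592 counts in replicate 2 and 1280 in replicate 1, and Osbpl2 had 821 in replicate 2 and 799 in replicate 1.

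Across 10 families of related genes, 21 of 30 pairs kept the same order in both libraries, and 25 did when the levels of replicate 1 were shifted by the GC trend. With the same shift the rho between the orders of all 42 genes was 0.857. The trend was fitted to the ratios of these same 2 libraries, so the shift brings replicate 1 closer to replicate 2 by construction. The gains in shared order are therefore no separate check. The family comparisons were chosen after the values were seen. Orders that both libraries gave, and that the shift did not turn, included Soat1 above Soat2, Plin2 above each other perilipin, Dgat2 above Dgat1, Npc2 above Npc1, Abca1 above Abcg1 and Star above the other START carriers. That of Npc2 and Npc1 was narrow in replicate 1, at 1.18 times by nuclear TPM, with 610 counts for Npc2 and 848 for Npc1.

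The leading transcript of a gene, the one with the highest deposited share in percent, also differed for some genes. Of 41 genes counted in both libraries, 29 had the same leading transcript, 9 of them with only 1 listed, and 12 had another. The leader of replicate 2 was richer in GC in 8 of the 12 and poorer in 2. The same counts were not made over all genes, so they do not show whether these genes differ from others. Star and Tspo had 1 transcript at 100% in both libraries. For Scarb1 the coding transcript Scarb1-201 held 90.5% in replicate 2 and 35.6% in replicate 1, where the retained-intron transcript Scarb1-209 led with 47.5%, against 1.33% in replicate 2. For Lipa the transcripts are 2969 and 2965 bases long with 45.5% GC each, yet Lipa-201 held 91.4% in replicate 2 and 28.6% in replicate 1. Osbpl2-201 held 94.1% in replicate 2 and 31.7% in replicate 1, where a retained-intron transcript held 67.6%.

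Several other leaders had a deposited share of 0% in one library or are annotated as non-coding. A share of 0% is a point estimate and does not show absence. By the deposited posterior share, replicate 1 had 28.3% for Plin5-202, 17.4% for Lipe-202, 2.62% for Apoe-202 and 1.03% for Gramd1a-201. The leaders of replicate 1 then held 70.6% for Lipe-201, 57.8% for Gramd1a-205 and 46.5% for Apoe-206. In Apoe a processed transcript of 728 bases held 53.0% in replicate 2 and 0% in replicate 1, where a coding transcript held 94.9% on 79 counts. In Pnpla2 the leader of replicate 2, at 56.5%, is annotated as subject to nonsense-mediated decay, and the coding transcript Pnpla2-203 led in replicate 1 with 54.6%. Lipe-202 held 74.4% in replicate 2, while Lipe-201 took all 33 counts of replicate 1. Plin4-202 held 100% in replicate 2 and 28.5% in replicate 1, but by the deposited posterior share it led in both libraries, with 97.0% in replicate 2 and 58.8% in replicate 1. Plin5-202 held 58.5% in replicate 2 and 0% in replicate 1. Bscl2-201 held 77.6% in replicate 2 and 0% in replicate 1, and Gramd1a-201 held 52.7% in replicate 2 and 0% in replicate 1, where a retained-intron transcript had all 125 counts. Stard3-201 held 87.7% in replicate 2 and 0% in replicate 1, on 5 counts there, and Gramd1c-201 held 94.0% in replicate 2 and 21.03% in replicate 1. A TPM sums over transcripts of different length, so a short one weighs heavily: in Lrp1 a retained-intron transcript of 763 bases held 48.1% of the gene in replicate 2 on 406 counts, while the coding transcript of 14888 bases held 38.6% on 8355 counts.

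**Figure D4:**
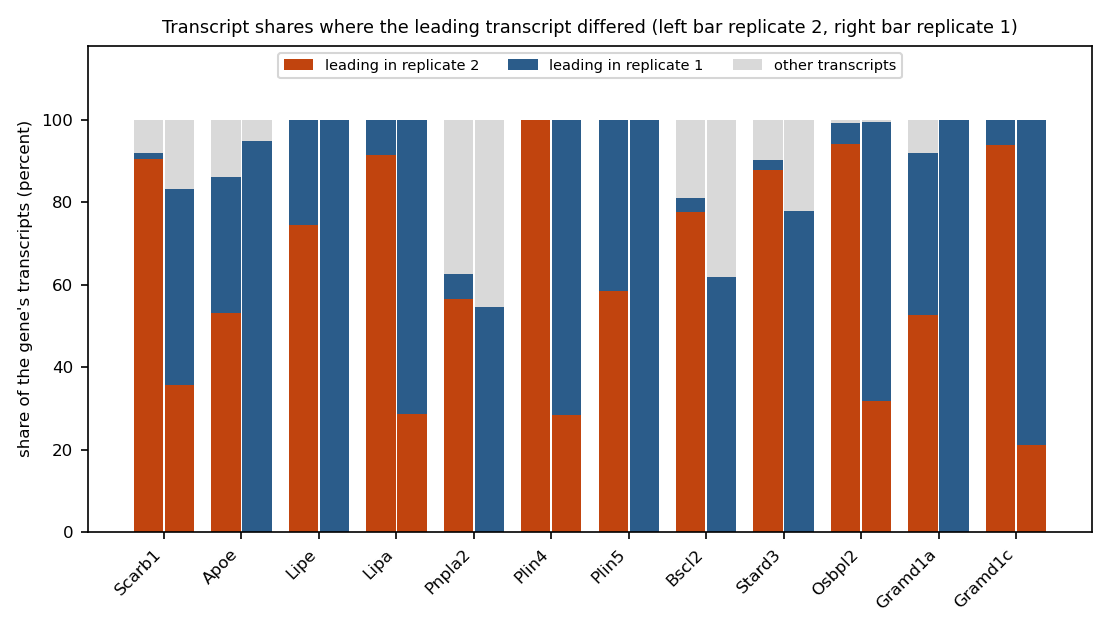
Share in percent of each gene's transcripts, as deposited, for the 12 genes whose leading transcript differed, with replicate 2 as the left and replicate 1 as the right bar. The transcript leading in replicate 2 is orange, that leading in replicate 1 blue and the rest grey; for Scarb1 the orange share is 90.5% in replicate 2 and 35.6% in replicate 1.

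A list of 46 further genes of the same pathways was measured alongside. Of 44 tested, 21 were higher in replicate 2, 7 lower and 16 not called, with a median log2 ratio of 0.74, and without the GC trend 11 were higher and 0 lower, with a median of 0.18. Over all genes tested the shares were 36.5% higher and 27.7% lower, and 11.8% higher and 11.5% lower without the GC trend. The most abundant were Scp2, a peroxisomal sterol carrier protein, and the lysosomal membrane proteins Lamp1 and Lamp2. Scp2 had 676 nuclear TPM in replicate 2 and 515 in replicate 1, while its log2 ratio of scaled counts ran the other way, at -0.95, and was not called. Lamp1 had 594 in replicate 2 and 565 in replicate 1, and Lamp2 had 297 in replicate 2 and 847 in replicate 1. Of these only Lamp2 was called, as lower, and its call ended without the GC trend. The 11 that stayed higher included G0s2, an inhibitor of the lipase encoded by Pnpla2, with 426 counts in replicate 2 and 3 in replicate 1, and Gpihbp1, which anchors Lpl to capillaries, with 477 counts in replicate 2 and 14 in replicate 1, both picked after their values were seen.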

How the data were processed

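Gene and transcript tables of 2 mouse adrenal gland libraries were used. The deposited expected counts, estimates of the fragments of a gene or transcript, were rounded. TPM, as deposited by the authors, was rescaled without 37 mitochondrial genes and their 15 nuclear copies (BLAST 2.17.0, at least 90% identity). FPKM, as deposited, served as an alternative, and so did the posterior mean TPM with its interval bounds, which the authors deposited and which were treated as a score. The transcript share in percent is deposited in the transcript tables. Per the deposited notes, reads were placed on mm10 with GENCODE M4, while aligner and counter were not given in the sources used here. Reads were not reprocessed.

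Symbols were found for 42462 of 43346 genes. Positions, GC content and sequences came from GENCODE M21 on GRCm38, a later release: 101510 of 103639 transcripts were found, 90.1% of them with the same length. Gene GC content was averaged over transcripts by abundance. No member had a near-identical copy (95% identity over at least 50% of the length). Whether counting used strand is not given.

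Counts were scaled with TMM (edgeR 4.0.16, R 4.3.3), over genes with 20 or more counts in all. Log2 ratios used a prior count of 0.5. A call needed a fold of at least 2 and an exact Clopper-Pearson interval at 95% on one side of 1, and no p-value was computed. GC and length trends were fitted by LOWESS (statsmodels 0.14.6, span 0.3, 3 iterations). The scripts were tested on simulated data. Other scalings (DESeq2 1.42.0 size factors, totals), filters and folds were tried. The members and lists were chosen with earlier results of these data known. Every member is reported. The rule for named genes took the 12 highest by mean, the ends of each role group and of the ratios, members at 0 counts and members whose call or leading transcript changed, and for other lists the highest 3. Protein sequences, which the rule also foresaw, were not used here.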

Additional observations from a re-analysis of the deposited data

How the results depend on the processing

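The number of members higher in replicate 2 stayed within 1.5 times of 18 under other scalings, count minimums, fold limits and prior counts and with the length trend removed. Under those settings the share of all genes higher ran from 26% at a fold of at least 4 to 54.1% with library totals. The number of members higher was 9 with the GC trend removed, 10 with GC averaged over annotated transcripts and 8 with GC and length trends removed. The shares of all genes were then 11.8%, 13.8% and 10.6%, in that order. The number lower, 8 as reported, was 0 with library totals, 3 with nuclear totals (Cd36, Lpl, Gramd1c), 0 at a fold of at least 4, 4 with the GC trend removed, 3 with annotation GC, 5 with the length trend removed and 3 with both trends removed. Of all genes 27.7% were lower as reported, 4.01% with library totals, 20.8% with nuclear totals and 5.71% at the larger fold. The shares lower were 11.5% with the GC trend removed, 12.6% with annotation GC, 33.7% with the length trend removed and 11.5% with both. The median log2 ratio of the members was 1.72 with library totals, 0.87 with nuclear totals, 0.12 and 0.088 with the GC trend removed by abundance and by annotation, and 0.27 with both trends removed. Library totals moved the median of all genes by 1.13 and nuclear totals by 0.28. The rho between the libraries was 0.538, and 0.857 with the GC shift, which was fitted to the ratios of these same libraries. Plin3 lost its call and Soat1 gained one under DESeq2 size factors, and Apoe lost its call, as did Lrp8 the one it had gained with the GC trend removed, with both trends removed. Taking replicate 2 or replicate 1 alone gave 38 and 32 members detected by deposited TPM, and 11 and 8 of the 12 highest.

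Of the 39 ratios 16 changed sign with the GC trend removed by abundance, 14 by annotation, 16 with GC and length trends removed, 11 with library totals and 1 with nuclear totals. Among members not called, Scarb2, Soat1, Lipa, Fitm2, Abcg1, Star and Gramd1b changed sign under each GC correction, and Scarb2, Lrp8, Soat1, Lipa, Abhd5, Star, Stard5 and Osbpl2 with library totals. Called members that changed sign had these log2 ratios, in the order GC trend by abundance, by annotation, and GC with length: Cd36 0.27, 0.26 and 0.33; Plin5 -1.96, -1.94 and -1.94; Dgat1 -1.16, -0.79 and -1.25; Dgat2 -0.33, -0.83 and -0.29; Gramd1a -1.91, -1.85 and -1.77; Gramd1c 0.26, 0.10 and 0.31. By abundance and with length, Nceh1 was 0.071 and 0.22, Bscl2 -0.19 and -0.33, and Stard4 0.12 and 0.30. Acbd3 was 0.25 by annotation. With library totals the called members that changed sign were Nceh1 at 0.058, Abca1 at 0.086 and Stard4 at 0.007. The cause of these changes was not tested beyond the trends themselves.

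No paired analysis was possible because the libraries form 1 group. Depth limits Apoa1, Lcat and Soat2, and Stard3 and Tspo rest on 5 and 13 counts in replicate 1. Trend removal assumes that true ratios do not vary with GC content, which these libraries cannot show. TMM takes most genes as equal between libraries, while 64.2% were called.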
